A study of Mus musculus with 114 samples.

Results

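Transcripts of astrocytes, oligodendrocytes, microglia and blood vessel cells were followed in pull-downs that were aimed at neurons of the mouse prefrontal cortex. The genes were taken as 38 named markers, and those present in the deposited count table by their Ensembl identifier were used: 35 of 13101 genes, comprising 10 astrocyte, 7 oligodendrocyte, 9 microglia, 5 endothelial and 4 mural (pericyte and vessel muscle) genes. Mog, Opalin and Kcnj8 were not analysed here. The libraries come from RiboTag mice, in which a haemagglutinin tag on a ribosomal protein lets the ribosomes of chosen cells be pulled down from brain homogenate with an antibody, together with the RNA they carry. All libraries share that genotype and that pull-down; the sources used here do not give the Cre driver, the strain or the age. Mice of both sexes were sampled at ZT2, ZT6, ZT10, ZT14, ZT18 and ZT22 (zeitgeber time, hours after lights on). The title of each library begins with PV (parvalbumin, 55 libraries used, 28 from females) or C (58 libraries used, 29 from females), while the cell type entry of the labels names pyramidal neurons for the former and parvalbumin interneurons for the latter. Libraries are therefore named here by their title, as PV-titled and C-titled. The 8 parvalbumin interneuron markers tested were all higher in PV-titled libraries (median log2 difference 4.93), and the 8 pyramidal markers were all lower (median -1.22). Each prefix and time held 8 to 10 libraries, and the labels do not say whether each came from a separate animal, so p values measure the spread between libraries, which may in part be technical.

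Ribosomes carry the tag only where the recombinase was active, so RNA of glia and vessels in such a pull-down is usually read as material that came along with the tagged ribosomes. Astrocytes clear glutamate and potassium, oligodendrocytes wrap axons in myelin, microglia are the resident macrophages of the brain, and endothelial cells with pericytes form the blood-brain barrier. Levels are given as CPM, a gene's counts relative to all counts on genes of the library, after TMM scaling (a correction for differences in library make-up). In bulk libraries of this kind, more cells of a type and more RNA per cell cannot be told apart.

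Each PV-titled library held between 19.1 and 39.5 M counts on genes (M, mega), and each C-titled one between 24.6 and 44.1 M. Counts on no gene made up 61.01% ± 2.78 (SD, n = 55) of a PV-titled library and 53.1% ± 1.33 (SD, n = 58) of a C-titled one. In 3 PV-titled and 5 C-titled libraries the correlation with the other libraries of the same prefix lay far below the rest, and these 5 were all sampled at ZT2 or ZT6. Library numbers in the titles fall in a first and a second range, which were kept as a term in the main fits. Counts of 0 were found in some library for Acta2 (both prefixes) and Sox10 (C-titled), and every other gene of the 35 had a count in every library.

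Promoter windows of RefSeq (build GRCm38.p6) were matched by symbol to 25 of the 35 genes. The 250 bases before the start were searched, and those ahead of the first base that GENCODE annotates as untranslated region are shown for C1qb and C1qc, neighbouring genes for subunits of complement C1q whose levels did not overlap between the prefixes, and for Slc1a2, an astrocyte glutamate transporter that was called for a time-of-day pattern below. The stretch for C1qb lies at chr4:136886201-136886450 (minus strand), that for C1qc at chr4:136893066-136893164 (minus strand) and that for Slc1a2 at chr2:102706188-102706355 (plus strand). The RefSeq starts of C1qc and Slc1a2 lie inside the genes as GENCODE annotates them (chromosome 4, 136889804 to 136893065, and chromosome 2, 102658659 to 102790784). The C1qc window therefore reaches into the annotated gene, and the Slc1a2 window lies within it. Capitals mark a match, on either strand, to GAGGAAGT (a binding motif of PU.1, the factor that directs macrophage and microglial genes) or to TTATGNAA (the D-box of clock-controlled genes).
C1qb: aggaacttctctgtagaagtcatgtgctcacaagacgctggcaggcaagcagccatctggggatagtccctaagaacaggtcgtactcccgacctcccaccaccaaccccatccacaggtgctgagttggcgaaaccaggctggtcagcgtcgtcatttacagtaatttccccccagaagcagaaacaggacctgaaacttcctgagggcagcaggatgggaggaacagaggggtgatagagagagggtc
C1qc: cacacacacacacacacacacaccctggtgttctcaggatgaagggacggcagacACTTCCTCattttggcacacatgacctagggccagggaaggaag
Slc1a2: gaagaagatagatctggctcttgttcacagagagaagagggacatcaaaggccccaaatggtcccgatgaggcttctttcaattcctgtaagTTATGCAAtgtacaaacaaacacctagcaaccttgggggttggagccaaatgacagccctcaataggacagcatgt
The PU.1 motif stood at bases -195 to -188 before the C1qc start and had no match in the C1qb window. It occurred in 2.44% of 32851 windows of this length in the genome, and in the windows of 2 of the 25 genes, C1qc and Ly6c1. A D-box stood at bases -158 to -151 before the Slc1a2 start, occurred in 3.07% of all windows and had no match in the other 24 genes. The E-box CACGTG, bound by the core clock factors, occurred in 6.02% of windows and, among these genes, in that of P2ry12 alone. These are letter matches in short windows and say nothing of binding.

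All 35 genes were called higher in the PV-titled group by the edgeR quasi-likelihood test, where 44.3% of all 13046 genes tested were called higher and 43.2% lower. The median difference was 2.32 on the log2 scale over the 35 genes and 0.01 over all genes tested. A difference of more than 2-fold was called for 29 of the 35, beside 17.9% of all genes. The share of called genes was thus well above the background in both tests, and the median of the 35 genes moved little between scalings (2.53 without scaling, which itself shifted the median of all genes to 0.21). In 6 genes every PV-titled library lay above every C-titled library, a separation found in 2.41% of all genes: Slc1a3 among astrocyte genes, and P2ry12, Csf1r, C1qb, C1qc and Ctss among microglial genes.

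**Figure D1:**
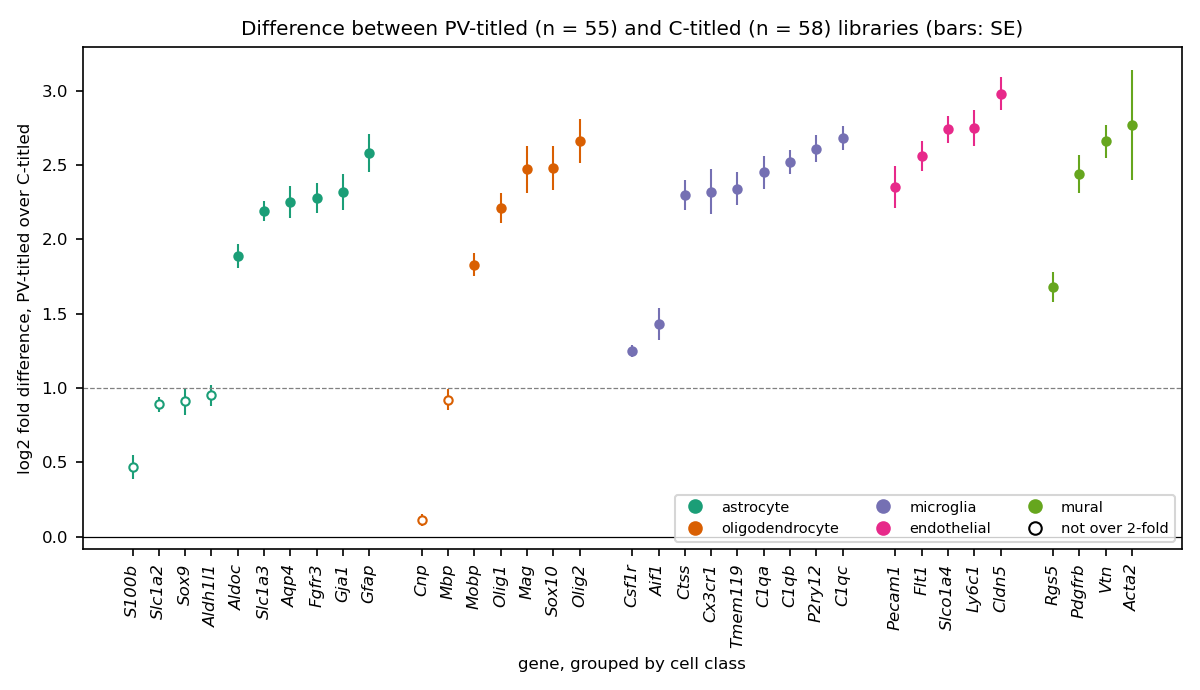
Log2 fold difference between PV-titled and C-titled libraries (y axis) for each gene, grouped by class (x axis), with bars for the standard error of the edgeR fit. All points lie above 0, from 0.11 for Cnp to 2.98 for Cldn5, and the 6 open points were not called over 2-fold.

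Among the 10 astrocyte genes the median log2 difference was 2.04, and 6 were called over 2-fold. Aqp4, the water channel of astrocyte endfeet (chromosome 18, 15389496 to 15410982, minus strand), ranged from 7.87 to 46.2 CPM with a median of 26.6 in PV-titled libraries. In C-titled libraries it ranged from 1.91 to 15.04 CPM with a median of 4.84. The ranges overlapped, with 50 of 55 PV-titled libraries above the highest C-titled one, and the log2 difference was 2.25 (SE 0.11, adjusted p 7.79e-38, edgeR). Gfap, an intermediate filament of astrocytes, had the largest difference of the class, with a median of 42.5 against 6.41 CPM and a log2 difference of 2.58 (SE 0.13). The smallest belonged to S100b, a calcium-binding protein, at 32.3 against 21.4 CPM and 0.47 (SE 0.08, adjusted p 1.19e-07, edgeR). No PV-titled library exceeded the highest C-titled library for S100b (76.5 CPM, at ZT2). Per kilobase of exon, Aldoc, a glycolytic enzyme, was the highest of the class at a median of 110.5 against 29.3 CPM per kb. Slc1a3, a glutamate transporter, was at 139.9 CPM or more in every PV-titled library and at 139.0 CPM or less in every C-titled one, so the ranges only just parted.

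The 4 astrocyte genes not called over 2-fold were Aldh1l1 (log2 difference 0.95), Sox9 (0.91), Slc1a2 (0.89) and S100b. They are a folate enzyme, a transcription factor, a glutamate transporter and a calcium-binding protein, and all 4 were still called higher in PV-titled libraries. Slc1a2 had the highest CPM of the 35 genes in C-titled libraries, with a median of 312.9 and a range of 146.3 to 693.9, against 572.6 and 452.7 to 897.4 in PV-titled ones.

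The 7 oligodendrocyte genes had a median log2 difference of 2.21, and 5 were called over 2-fold. Mobp, a protein of compact myelin (chromosome 9, 120149707 to 120181484, plus strand), ranged from 24.3 to 92.6 CPM with a median of 47.0 in PV-titled libraries. Its C-titled range was 7.39 to 27.0 CPM with a median of 13.0. Only 3 of the PV-titled libraries fell within the C-titled range, and the log2 difference was 1.83 (SE 0.08, adjusted p 4.57e-41, edgeR). Olig2, a transcription factor of the lineage, had the largest difference at 11.8 against 1.87 CPM and a log2 difference of 2.66 (SE 0.15). Mbp, myelin basic protein, had the highest level per kb in PV-titled libraries (28.9, against 14.6 CPM per kb in C-titled ones, where Cnp was higher at 16.7), but a log2 difference of 0.92 (SE 0.07), and was not called over 2-fold. Cnp, a myelin enzyme, differed least of the 35 genes: 63.5 against 60.8 CPM, with 34 of 55 PV-titled libraries above the C-titled median. Its log2 difference of 0.11 (SE 0.04, adjusted p 0.0186, edgeR) was no longer called once the libraries standing apart were left out (0.07, adjusted p 0.11) or in the second number range alone (0.08, adjusted p 0.209).

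All 9 microglial genes were called over 2-fold, with a median log2 difference of 2.34. Cx3cr1, the fractalkine receptor of microglia (chromosome 9, 119901616 to 120069879, minus strand), ranged from 0.046 to 27.7 CPM with a median of 12.6 in PV-titled libraries. The C-titled range was 0.197 to 5.72 CPM with a median of 2.61. Here 50 of 55 PV-titled libraries lay above all C-titled ones, while the lowest library of all was PV-titled; the log2 difference was 2.32 (SE 0.15, adjusted p 4.48e-28, edgeR). C1qc differed most, from 17.5 to 52.0 CPM (median 27.6) against 1.91 to 7.64 CPM (median 4.07), a log2 difference of 2.68 (SE 0.08). Csf1r, the receptor of the microglial growth factor, differed least at 1.25 (SE 0.04), yet its ranges did not overlap, at 36.7 to 87.3 against 18.7 to 33.7 CPM. The level per kb was highest for C1qb in PV-titled libraries, at 23.9 CPM per kb against 4.05 in C-titled ones, where Csf1r stood at 4.16. Both C1qc and Csf1r were thus free of overlap, at the largest and the smallest difference of the class.

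Endothelial genes had the highest median log2 difference of the 5 classes, 2.74, and all 5 were called over 2-fold. Cldn5, a tight junction protein (chromosome 16, 18776847 to 18778262, plus strand), had the largest difference of the 35 genes and the highest level per kb of its class. It ranged from 8.47 to 63.4 CPM with a median of 32.9 in PV-titled libraries, and from 1.09 to 14.8 CPM with a median of 3.98 in C-titled ones. The ranges overlapped in 2 PV-titled libraries, and the log2 difference was 2.98 (SE 0.11, adjusted p 2.57e-49, edgeR), a difference above that of 98.9% of genes. Pecam1, an adhesion molecule of endothelium, differed least, at 6.42 against 1.34 CPM and a log2 difference of 2.35 (SE 0.14). Ly6c1 (log2 difference 2.75) has a near-identical neighbour in the mouse genome, so its counts are uncertain.

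The 4 mural genes were all called over 2-fold, with a median log2 difference of 2.55. Rgs5, a regulator of G protein signalling used to mark pericytes (chromosome 1, 169655501 to 169695813, plus strand), ranged from 4.35 to 32.5 CPM with a median of 13.4 in PV-titled libraries. The C-titled range was 2.31 to 9.11 CPM with a median of 4.49. PV-titled libraries above all C-titled ones numbered 48 of 55, and the log2 difference, the smallest of the class, was 1.68 (SE 0.10, adjusted p 2.47e-31, edgeR). Acta2, smooth muscle actin, had the largest (2.77) with the largest error (SE 0.37). It was spread from 0 to 68.1 CPM in PV-titled libraries and from 0 to 12.6 CPM in C-titled ones, and only 9 PV-titled libraries exceeded the highest C-titled one. Vtn, a matrix protein made by pericytes, was the highest per kb at 9.21 against 1.40 CPM per kb.

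Other genes of the same classes, taken from lists of markers, moved in the same direction for the most part. Only listed genes present in the deposited table could be counted, and many of the oligodendrocyte and mural lists are absent from it. Some that are present were low in C-titled libraries, such as Gjc3 (median 0.857 CPM) and Myl9 (0.802 CPM). Higher in PV-titled libraries were 18 of 20 further astrocyte genes (median log2 difference 2.02), 9 of 10 oligodendrocyte genes (1.90), 16 of 18 microglial genes (2.45), 15 of 18 endothelial genes (2.07) and all 5 mural genes (2.15). Lower were Clu, a secreted chaperone (-0.88), Enpp2, a lipid-producing enzyme (-1.25), the microglial list's Lgmn (-0.93) and Cd81 (-0.80), and Cd34 (-0.80). Genes at the other end of these lists were Gjb6 (2.47), Apod (2.88), Fcer1g (2.79), Ly6a (2.84) and Atp13a5 (3.02). Of 10 oligodendrocyte precursor genes 7 were higher and 2 lower, from -0.47 for Cspg5 to 2.67 for Neu4.

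Genes that are not markers of these cell classes differed between the prefixes by as much. All 4 fibroblast and meningeal genes (median log2 difference 2.82), all 5 red blood cell genes (2.48, with haemoglobin copies that share reads), all 7 nuclear RNAs (2.76) and all 9 mitochondrially encoded genes (2.57) were called over 2-fold higher in PV-titled libraries. These counts cover only genes in the deposited table that passed the filter on low counts, which libraries of a single prefix can satisfy. Several were near the floor in C-titled libraries, with medians of 0.165 (mt-Co2), 0.248 (mt-Atp6), 0.338 (mt-Co3), 0.189 (Hbb-bt) and 0.378 CPM (Alas2). The share of counts on no gene was higher there as well, as given above. The part of these measures in the difference of the 35 genes was not tested.

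Summed over a class, the genes gave a level for each library. Astrocyte genes summed to 1186 to 2696 CPM (median 1511) in PV-titled and 370.7 to 1363 CPM (median 572.8) in C-titled libraries. Oligodendrocyte genes summed to 186.7 to 641.0 CPM (median 414.5) against 132.5 to 316.5 CPM (median 209.2). These 2 classes overlapped between the prefixes. Microglial genes summed to a median of 193.8 CPM (highest 288.6) against 48.9 CPM (highest 85.5). Mural genes summed to 30.5 to 148.5 CPM (median 50.8) against 3.602 to 26.9 CPM (median 10.3), so that both of these classes parted fully. Endothelial genes overlapped through 1 library at each end, at 52.0 to 201.3 CPM (median 147.1) against 8.10 to 60.2 CPM (median 21.1); the PV-titled library at 52.0 CPM is among those that stand apart.

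**Figure D2:**
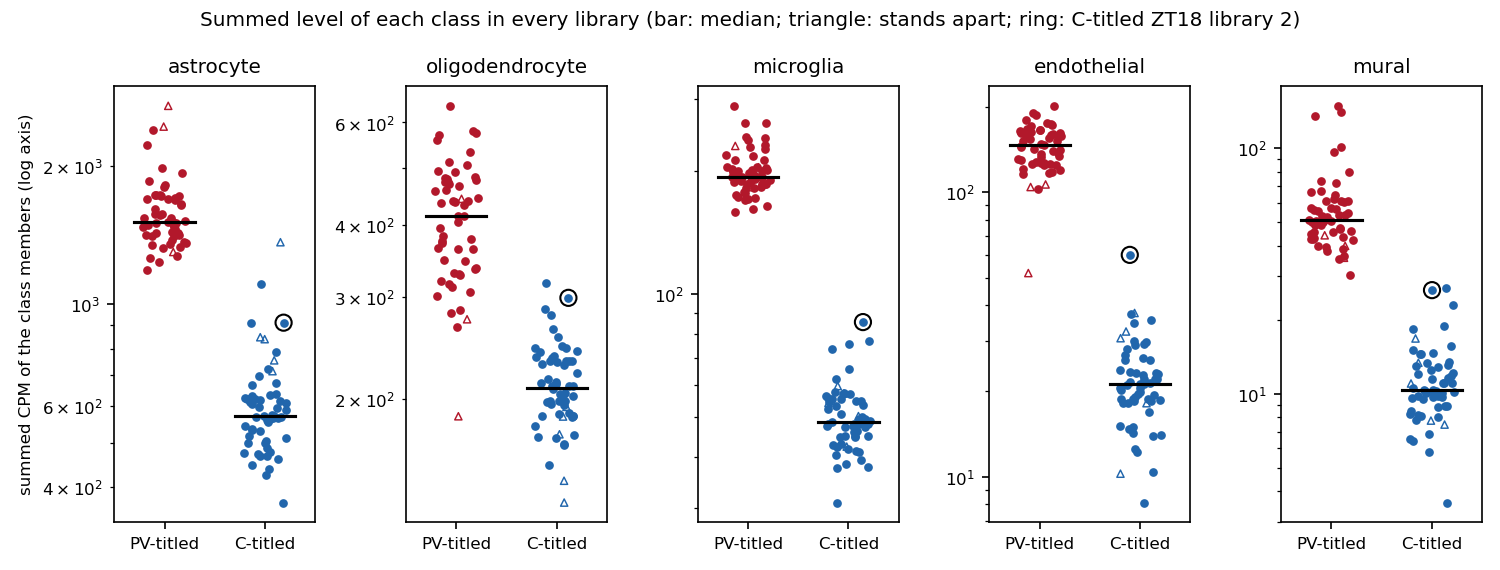
Summed CPM of each class (y axis, log scale, separate per panel) in every PV-titled and C-titled library, with bars for the median, open triangles for libraries that stand apart and a ring around C-titled ZT18 replicate 2. Microglial and mural sums do not overlap between the prefixes, and the ringed library is at or near the top of the C-titled libraries in each panel.

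The ringed library, C-titled ZT18 replicate 2, was above the C-titled median for all 35 genes, among the 5 highest of 58 libraries for 30 of them and the highest for 15. Its endothelial sum was 60.2 CPM, its microglial sum 85.5 CPM and its astrocyte sum 911.5 CPM. It also held the highest C-titled levels of Pvalb (5.05 CPM) and of Gad1, the GABA-synthesizing enzyme (91.1 CPM). C-titled ZT2 replicate 2 was above the median for all 35 genes too, and C-titled ZT22 replicate 2 for 28. They ranked next for both interneuron genes, at 3.74 and 3.48 CPM of Pvalb and 56.9 and 83.7 CPM of Gad1. These libraries were picked out after their values were seen.

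The difference between the prefixes was present in each library-number range, with a median log2 difference of 2.13 in the first and 2.49 in the second. Between ranges, C-titled libraries changed for 17 of the 35 genes, all lower in the second range (of all genes 40.4% were called, 20.3% lower and 20.1% higher), with a median log2 change of -0.30. The largest was Olig2, from a median of 2.56 to 1.25 CPM (log2 change -1.18, SE 0.20). In PV-titled libraries 3 genes were higher in the second range, Gfap (0.38), Aqp4 (0.37) and Flt1, a VEGF receptor (0.39), beside 13.1% of all genes. Lower there were Aldoc (-0.57), Gja1, the astrocyte gap junction protein (-0.55), S100b (-0.31) and Aldh1l1 (-0.30), beside 15.7% of all genes. The range covers whatever separated the library numbers, which the labels do not name.

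A test of whether the prefix difference itself changed between ranges, chosen after seeing these values, called 7 of 35 genes, all with a larger difference in the second range, where 6.46% of all genes were called so and 9.51% with a smaller one. Olig2 changed most, from 1.98 in the first to 3.33 in the second range (edgeR interaction adjusted p 0.000328), followed by Gfap, from 2.13 to 3.09 (adjusted p 0.00314). Aqp4, Flt1, Fgfr3, Slc1a3 and Slco1a4 made up the rest.

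**Figure D3:**
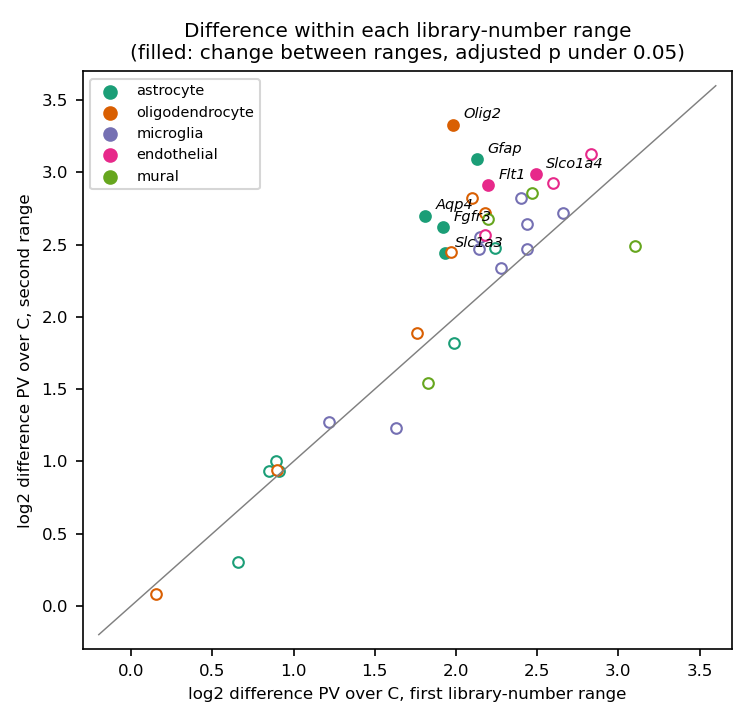
Log2 difference between PV-titled and C-titled libraries in the first library-number range (x axis) and in the second (y axis), 1 point per gene. Filled points are the 7 genes called in the interaction test, all above the line of equality, with Olig2 farthest from it at 1.98 and 3.33.

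Co-variation was measured on log2(CPM + 0.5) after removing time, sex and range as additive terms. It reflects the differences between libraries that these terms leave, including any between their combinations. In C-titled libraries 89.1% of the 595 gene pairs correlated positively, with a median r of 0.322. In PV-titled libraries 63.2% did, with a median r of 0.080. Without the libraries that stand apart the medians were 0.415 (C-titled) and 0.049 (PV-titled), and without scaling 0.357 and 0.157, where the medians with all other genes were 0.105 and 0.064. Pairs of these genes with all other genes had a median of 0.029 in C-titled and -0.002 in PV-titled libraries. These are descriptions over pairs that share libraries, depth and scaling.

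Within a class the median r was 0.374 in C-titled libraries, and between classes it was 0.310. The corresponding values were 0.175 and 0.062 in PV-titled libraries. Endothelial pairs had the highest median in both, 0.606 and 0.366, but the latter was 0.135 without the 3 PV-titled libraries that stand apart, below astrocyte, oligodendrocyte and mural pairs (0.190, 0.158 and 0.195). The C-titled value was 0.606 without those that stand apart. In C-titled libraries microglial genes correlated with endothelial genes (median r 0.449) above their own class (0.397). A gene correlated best with the mean of its own class in 22 of 35 cases in PV-titled libraries and 18 of 35 in C-titled ones. In this measure the classes were thus not cleanly separated in either prefix.

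**Figure D4:**
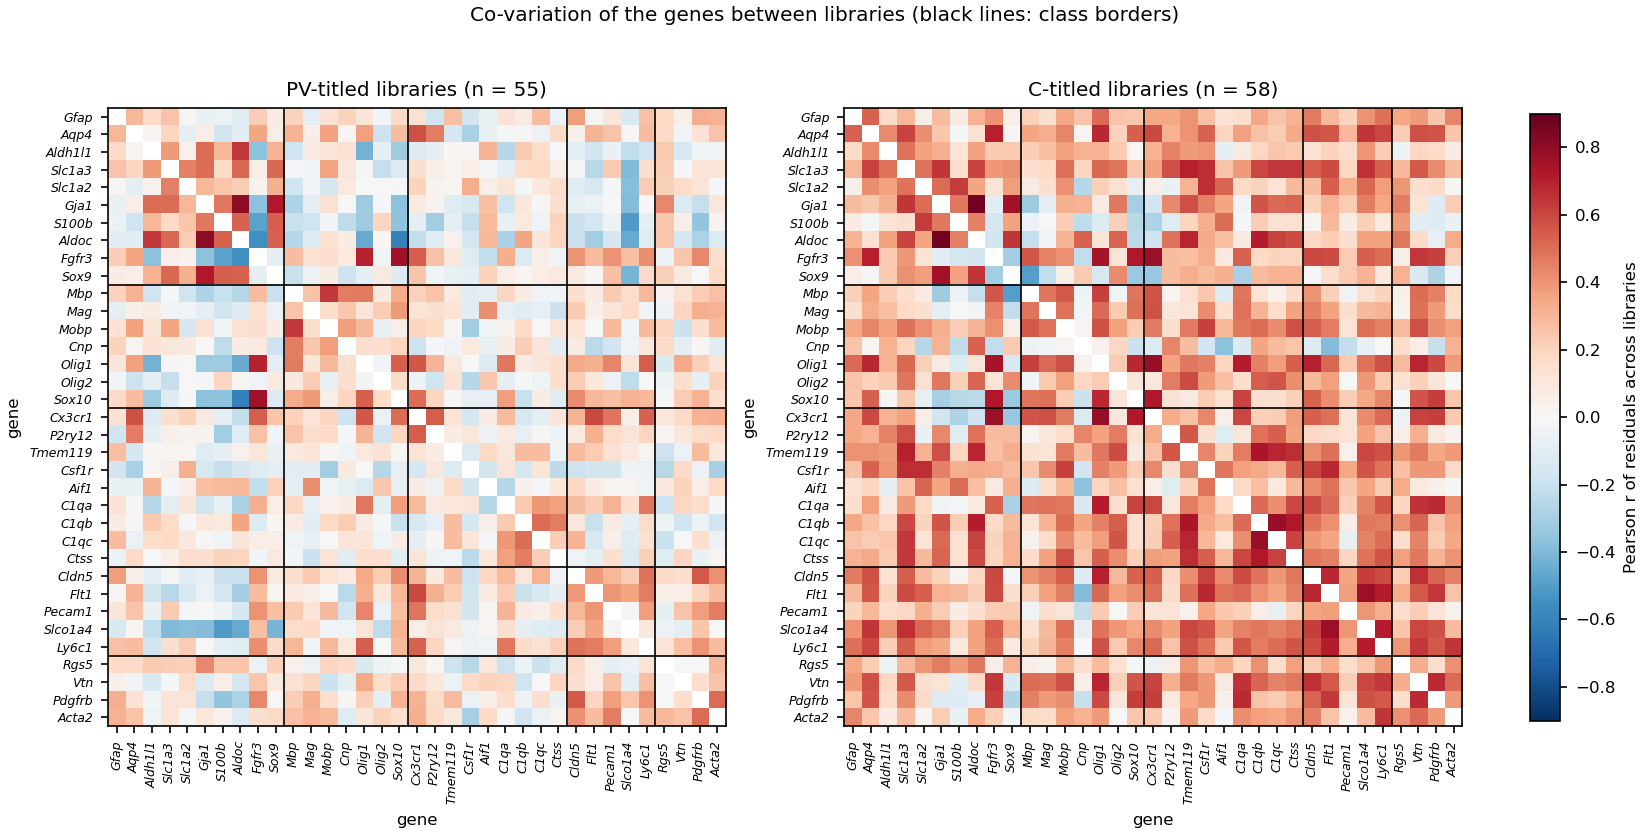
Pearson r across libraries for every pair of genes (both axes, ordered by class, black lines between classes) in PV-titled libraries on the left and C-titled libraries on the right, on a colour scale from blue (negative) to red (positive). The C-titled panel is red across class borders (median r 0.322), and the PV-titled panel is mixed (0.080).

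Single pairs departed from the class grouping in both prefixes. Aldoc and Gja1 had the highest r in each, 0.865 in C-titled and 0.808 in PV-titled libraries. Fgfr3, a growth factor receptor listed with astrocytes, correlated with the oligodendrocyte factors Sox10 (r 0.722 in C-titled, 0.759 in PV-titled) and Olig1 (0.744 and 0.693). With Aldoc it gave -0.555 in PV-titled libraries, and Aldoc with Sox10 gave the lowest r there, -0.608. In C-titled libraries the lowest pair was Mbp with Sox9 at -0.498. Without the libraries that stand apart, Mbp with Sox9 gave -0.115 in C-titled libraries. In PV-titled ones Aldoc then gave -0.371 with Fgfr3 and -0.417 with Sox10, and Fgfr3 gave 0.482 with Sox10. The lowest pairs were then S100b with Sox9 (-0.170, C-titled) and S100b with Fgfr3 (-0.445, PV-titled), while Aldoc with Gja1 still gave 0.845 and 0.756. C1qb and C1qc, the neighbouring genes printed above, gave 0.786 in C-titled libraries. Without the libraries that stand apart they gave 0.803 in C-titled and 0.46 in PV-titled ones.

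For 1 representative of each class the relations were tested by permutation (100000 resamples, two-sided, 20 relations adjusted together). In C-titled libraries 6 of 10 were called, those among Aqp4, Mobp, Cx3cr1 and Cldn5, with r from 0.436 to 0.593 (n = 58). For Aqp4 and Cx3cr1, r was 0.593 and Spearman's rho 0.535, with permutation p of 1e-05 and 3e-05 (adjusted 5e-05 and 0.0002), and r was 0.524 without the 2 libraries farthest from the median of Aqp4. Within the first and second ranges, r for this pair was 0.678 and 0.566. Aqp4 with Mobp (r 0.436) was not called without title set 1, the libraries whose titles begin with that digit (r 0.319, adjusted permutation p 0.088). No relation with Rgs5 was called in C-titled libraries, where r ranged from -0.052 to 0.283. Without the libraries that stand apart, Rgs5 was called there with Aqp4 (r 0.346), Mobp (0.346) and Cldn5 (0.356), each at an adjusted permutation p of 0.022. With Cx3cr1 it was still not called (r 0.164, adjusted permutation p 0.32). Without scaling, Rgs5 was called with Aqp4 (r 0.294) and Mobp (0.307). In PV-titled libraries 2 of 10 were called: Aqp4 with Cx3cr1 (r 0.570, rho 0.401, permutation p 3e-05 and 0.0028, adjusted 0.00012 and 0.0094, n = 55) and Aqp4 with Mobp (r 0.360, rho 0.295, permutation p 0.007 and 0.03, adjusted 0.018 and 0.075). The first held in both ranges (0.648 and 0.650) and without the 2 farthest libraries (0.471). The second fell to 0.238 without the 2 farthest libraries and to 0.179 in the second range, so it rests on few libraries. The difference in co-variation between the prefixes was not tested.

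The same 5 genes were set against Pvalb, against Slc17a7 (the vesicular glutamate transporter of pyramidal neurons) and against the share of counts on no gene, 30 relations adjusted together. In C-titled libraries Pvalb was called with all 5: r was 0.638 with Mobp, 0.553 with Cldn5, 0.553 with Aqp4, 0.367 with Cx3cr1 and 0.313 with Rgs5 (n = 58). The C-titled median of Pvalb was 0.793 CPM, close to the 0.5 CPM added before taking logs. For Mobp and Pvalb the permutation p of r was 1e-05 (adjusted 0.00015), the smallest these resamples can give, rho was 0.514 (permutation p 7e-05, adjusted 0.0015), and r was 0.547 without the 2 farthest libraries. By rho, Cx3cr1 and Rgs5 were not called with Pvalb (adjusted permutation p 0.089 and 0.19). For Mobp, r was 0.841 in the first range and 0.414 in the second, and in the second range none of the 5 was called (adjusted permutation p 0.096 to 0.23). Without title set 1, which holds the 3 libraries named above, none of the 5 relations with Pvalb was called (r from 0.226 to 0.393). Without C-titled ZT18 replicate 2 alone, 4 of the 5 were still called, and Rgs5 was not (r 0.222). In PV-titled libraries no representative was called with Pvalb, with r from -0.288 to 0.057 (n = 55).

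With Slc17a7, Cx3cr1 was called in both prefixes, at r 0.625 (rho 0.458, permutation p 1e-05 and 0.00039, adjusted 0.00015 and 0.0029) in C-titled and 0.466 (rho 0.495, permutation p 0.0033 and 0.00011, adjusted 0.014 and 0.0015) in PV-titled libraries. The C-titled value fell to 0.176 without the libraries that stand apart and was 0.408 without the 2 farthest libraries. Cldn5 with Slc17a7 in PV-titled libraries was called at 0.452 but stood at 0.004 without the libraries that stand apart, at 0.113 without the 2 farthest and at -0.040 in the second range. Aqp4 with Slc17a7 was called in PV-titled libraries (r 0.375) and fell to 0.169 without those that stand apart. The share of counts on no gene was called in C-titled libraries with Cldn5 (r 0.420) and Mobp (r 0.337), but not by rho (0.199 and 0.261, adjusted permutation p 0.29 and 0.16). Without the libraries that stand apart it was called with Aqp4 (r 0.568) and Cx3cr1 (r 0.566) as well.

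Among genes outside the 35, those with a profile most like a class mean were named by r over libraries, the 5 highest per class. In C-titled libraries Car2, a carbonic anhydrase, was the highest for microglial genes (r 0.860) and Epas1, a hypoxia-responsive factor, for mural genes (0.746). Their log2 differences, PV-titled minus C-titled, were 2.48 and 2.38. Sox6 (r 0.770) and Kcnab3 (r 0.750), among the 5 closest to the oligodendrocyte mean, had log2 differences of 3.34 and 3.01. In PV-titled libraries the highest were Mmd2 for astrocyte genes (0.764), Rasl11b for oligodendrocyte genes (0.734), Fam174a for microglial genes (0.605), Id3 for endothelial genes (0.772) and Ly6a for mural genes (0.693). Their log2 differences were 0.06, -1.20, -0.49, 2.86 and 2.84 in that order.

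Time of day was examined separately for each prefix with a 24 h cosine curve. In PV-titled libraries none of the 35 genes was called by edgeR, where 3.1% of all genes were, with 4 at an unadjusted p under 0.05 (2244 of all 13038 genes) and none called by DESeq2. Those 4 were Acta2, Cldn5, Vtn and Pecam1, with adjusted p from 0.16 to 0.261 (edgeR). Slco1a4, a transporter of the blood-brain barrier, was called only without the libraries that stand apart (amplitude 0.22, adjusted p 0.0487, edgeR). By class, the median amplitude, the log2 distance from mean to peak, was 0.11 for astrocyte, 0.15 for oligodendrocyte, 0.10 for microglial, 0.16 for endothelial and 0.22 for mural genes in PV-titled libraries.

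In C-titled libraries 6 of the 35 genes were called rhythmic (17.1%), where 26.9% of all genes were, a share below the background. They were 4 of 10 astrocyte genes, 1 of 7 oligodendrocyte genes, 1 of 9 microglial genes and no vascular gene. Of the 6 genes not over 2-fold between the prefixes 4 were called, and of the 29 others 2 were. Among the former, S100b, Slc1a2 and Sox9 lost their call without the libraries that stand apart, as did Fgfr3 among the latter. The shares over all genes split in this way were not determined, and a link between the size of the prefix difference and rhythm was not tested.

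Mbp had the lowest adjusted p, with an amplitude of 0.28 (SE 0.06) and a fitted peak at ZT19.2 (adjusted p 0.000762, edgeR). Its C-titled mean rose from 99.8 ± 20.02 CPM (SD, n = 10) at ZT6 to 153.7 ± 15.1 CPM (SD, n = 9) at ZT18, and every ZT18 library (125.4 CPM or more) lay above every ZT6 library (121.1 CPM or less). These times were picked as those of its lowest and highest means, so their separation is no further support for the rhythm. In PV-titled libraries the mean of Mbp was 218.2 ± 69.4 CPM (SD, n = 9) at ZT6 and 272.9 ± 52.5 CPM (SD, n = 9) at ZT18, with a fitted peak at ZT18.2 and no call (adjusted p 0.443, edgeR). The difference in its rhythm between the prefixes was not called (adjusted p 0.801, edgeR).

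Aif1, an actin-binding protein of microglia, peaked at ZT5.73 in the fit of C-titled libraries (amplitude 0.38, SE 0.09, adjusted p 0.00595, edgeR). Its mean fell from 2.73 ± 1.35 CPM (SD, n = 10) at ZT2 to 1.62 ± 0.5002 CPM (SD, n = 10) at ZT22, and the ranges at these times overlapped. S100b peaked at ZT3.44 (amplitude 0.30, SE 0.08, adjusted p 0.00638, edgeR), from 32.0 ± 18.4 CPM (SD, n = 10) at ZT2 down to 19.3 ± 5.53 CPM (SD, n = 10) at ZT14. The ZT2 libraries were spread from 14.6 to 76.5 CPM. Slc1a2 had its C-titled peak at ZT3.62 (amplitude 0.20, adjusted p 0.0208, edgeR), with 377.5 ± 133.9 CPM (SD, n = 10) at ZT2 and 280.2 ± 59.7 CPM (SD, n = 10) at ZT14. Sox9 peaked at ZT4.16 (0.27, adjusted p 0.0231, edgeR), from 37.8 ± 22.3 CPM (SD, n = 10) at ZT2 to 26.1 ± 5.39 CPM (SD, n = 10) at ZT14. For these 4 genes the early times held the widest spread of libraries. Fgfr3 peaked instead at ZT15.6 (0.27, adjusted p 0.0441, edgeR), with 12.2 ± 5.26 CPM (SD, n = 10) at ZT6 and 18.8 ± 8.13 CPM (SD, n = 9) at ZT18.

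**Figure D5:**
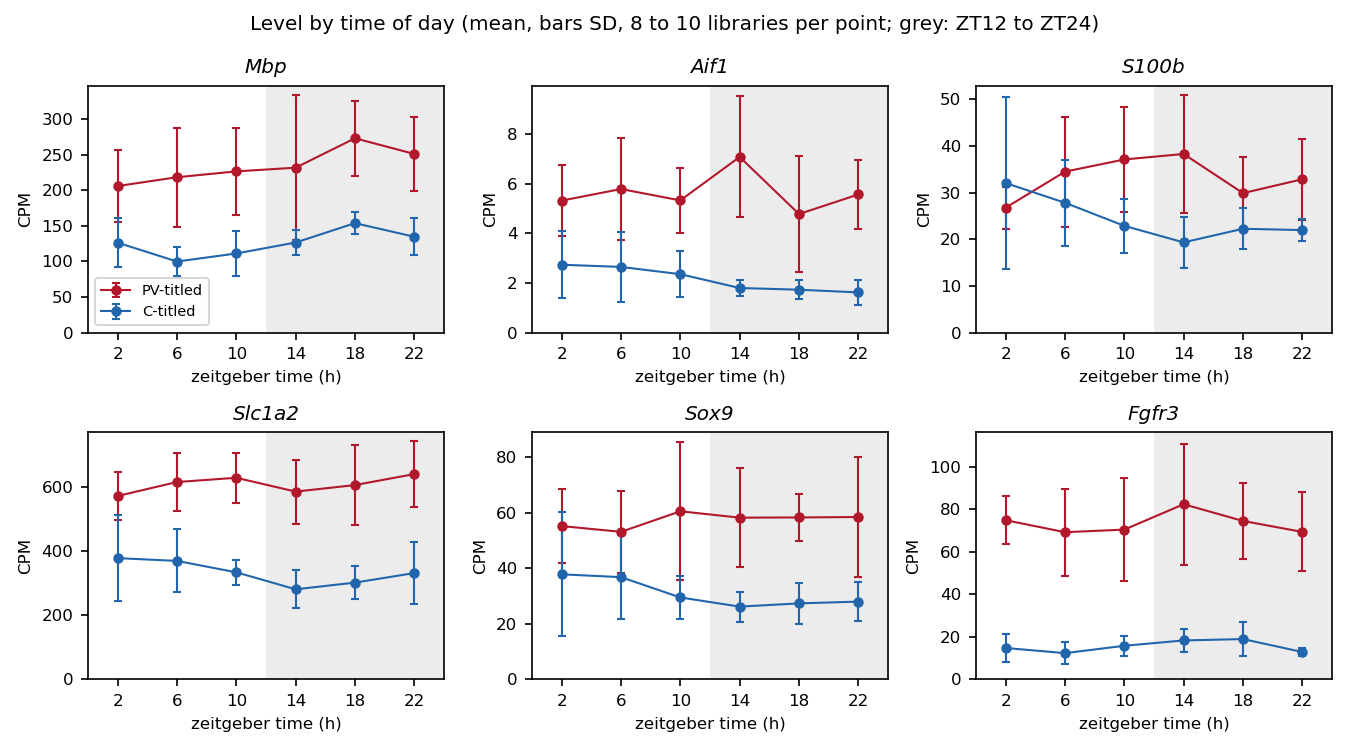
Mean CPM (y axis) with SD bars at each zeitgeber time (x axis) for the 6 genes called rhythmic in C-titled libraries, in PV-titled (red) and C-titled (blue) libraries, with ZT12 to ZT24 in grey. Mbp in C-titled libraries is highest at ZT18 (153.7 CPM), and Aif1, S100b, Slc1a2 and Sox9 are highest at ZT2, with their widest SD at ZT2 (Aif1 at ZT6).

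The 5 C-titled libraries that stand apart were all from ZT2 or ZT6. Without them 2 of the 6 calls were left, Mbp (adjusted p 0.000965) and Aif1 (adjusted p 0.0319, edgeR), where 22% of all genes were called. S100b, Slc1a2 and Sox9 then had amplitudes of 0.11, 0.10 and 0.11 (adjusted p 0.288, 0.329 and 0.363, edgeR), and Fgfr3 of 0.21 (adjusted p 0.0647). With females alone or the first number range alone none of the 35 was called, and with males alone only Mbp was (adjusted p 0.0225, edgeR).

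The rhythm itself was not called different between the prefixes for any of the 35 genes by edgeR, where 0.56% of all genes were, with S100b the lowest (adjusted p 0.0746). DESeq2 called S100b alone (adjusted p 0.0477). In C-titled libraries 26.9% of all genes were called rhythmic, and other genes of these classes near that share (endothelial, 27.8%) or below it. Calls were made for 4 of 20 astrocyte, 2 of 18 microglial, 5 of 18 endothelial, 2 of 10 oligodendrocyte precursor and none of 10 oligodendrocyte or 5 mural genes. Mfsd2a, the lipid transporter of the blood-brain barrier, had the largest amplitude of these at 0.46 with a peak at ZT17.1 (adjusted p 0.0046, edgeR). In PV-titled libraries Abcg2, an efflux pump of the barrier, peaked at ZT12.0 (amplitude 0.37, adjusted p 0.00114), and in C-titled libraries at ZT9.28 (0.20, adjusted p 0.00549, edgeR). The other calls on these lists in PV-titled libraries were Ttyh1 of the astrocyte list (amplitude 0.14, ZT15.5, adjusted p 0.0413) and Slc6a13 of the fibroblast and meningeal list (0.57, ZT21.3, adjusted p 0.0129, edgeR). Of all genes, 3.1% were called in PV-titled libraries.

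Sex changed none of the 35 genes in either prefix by edgeR, where 0.0307% of all genes were called in PV-titled libraries and 0.184% in C-titled ones. At an unadjusted p under 0.05 there were 0 genes in PV-titled libraries and 2 in C-titled ones, and the lowest adjusted p in the latter was 0.377. The log2 differences of males from females ranged from -0.21 to 0.14 in PV-titled and from -0.30 to 0.36 in C-titled libraries.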

How the data were processed

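RNA bound to tagged ribosomes was measured by RNA sequencing (SMART-seq HT cDNA, Nextera Flex libraries, per the labels' protocols). The authors deposited 1 table of whole-number counts per gene, already limited to 13101 genes; FastQC, HTSeq and DESeq2 and the build GRCm38 are named in the submitters' processing notes, while the aligner, the annotation and all versions are not given in those sources. Counts on no gene (61.01% and 53.1% of PV-titled and C-titled libraries) were left out of library sizes. Of the value columns, 1 was not used, because its name gives another sex than the title it would match; 113 of 114 libraries entered.

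Symbols, positions and exon lengths came from GENCODE vM21 (GRCm38). Tests used edgeR 4.0.16 in R 4.3.3: TMM scaling, filterByExpr, quasi-likelihood F tests with time, sex and number range as terms, glmTreat for at least 2-fold, cosine and sine of 24 h for rhythm, and Benjamini-Hochberg adjustment over all genes tested at 0.05. DESeq2 1.42.0 was an alternative. The fits were tested on simulated data. Correlations used log2(CPM + 0.5) residuals and 100000 permutations. Libraries were grouped by title prefix and time. Other alternatives were other scalings, no filter, each range, each sex, time as a factor, title sets, and leaving out 8 libraries whose median correlation lay over 3 interquartile ranges below the lower quartile. Since counting used no strand that is stated, overlapping genes on opposite strands cannot be told apart.

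Named genes were the representative of each class (Aqp4, Mobp, Cx3cr1, Cldn5, Rgs5), the largest and smallest difference and highest level per kb in each class, every gene called in a rhythm or sex test, the ends of other lists, and the closest other genes per class, some of which are not reported here; further names were chosen after seeing values. The genes and lists were chosen with earlier results of these data known. Reads without molecular identifiers are not independent molecules.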

Additional observations from a re-analysis of the deposited data

Results flagged for a closer look

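Within each prefix and time (8 to 10 libraries), the levels of the 5 class representatives and the 5 class sums were searched for a library far from the rest, by Dixon's 95% critical value for its gap. This picked out 26 of 120 groups, 25 of them for a high value. The rate of about 1 in 20 by chance holds for normally distributed values. These are unlogged CPM from groups that mix both number ranges, and the rate for such values was not determined. The measures share libraries and are not independent. C-titled ZT18 replicate 2 was picked out for Aqp4 (14.8 CPM), Mobp (22.4 CPM), Cldn5 (14.8 CPM), Rgs5 (8.43 CPM) and all 5 sums: astrocyte 911.5 CPM, oligodendrocyte 298.9 CPM, microglial 85.5 CPM, endothelial 60.2 CPM and mural 26.4 CPM. C-titled ZT22 replicate 2 was high for Mobp (27.0 CPM), Cldn5 (8.73 CPM), the astrocyte sum (1108 CPM) and the microglial sum (73.6 CPM). Further C-titled libraries were high for Aqp4 at ZT2 (15.04 CPM), Cldn5 at ZT10 (8.52 CPM), the astrocyte sum at ZT2 (1363 CPM, a library that stands apart), and at ZT14 for the endothelial sum (35.5 CPM) and, in another library, the mural sum (26.9 CPM). PV-titled libraries were high for Cldn5 at ZT2 (63.4 CPM), Rgs5 at ZT10 (32.5 CPM), the mural sum at ZT2 (139.6 CPM) and ZT10 (101.1 CPM), and the astrocyte sum at ZT6 (2212 CPM), ZT14 (2696 CPM, stands apart) and ZT22 (2389 CPM). The endothelial sum of a PV-titled ZT10 library that stands apart was low (52.0 CPM). Every value picked out came from a library of the first number range, except the mural sum at C-titled ZT14.

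The prefix difference changed between the library-number ranges by a test of that change (edgeR interaction) in 7 genes. The second range exceeded the first by 1.36 (log2) for Olig2, 0.98 for Gfap, 0.90 for Aqp4, 0.74 for Flt1, 0.71 for Fgfr3, 0.51 for Slc1a3 and 0.50 for Slco1a4. Without the libraries that stand apart these were 1.31, 0.80, 0.85, 0.80, 0.64, 0.55 and 0.51, and all 7 were still called.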

How the results depend on the processing

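The 35 genes higher in PV-titled libraries numbered 34 or 35, and those over 2-fold 29 in each case, when any title set was left out, and no gene changed direction under the alternatives run. After removing the group means, libraries of the same title set correlated at a mean of 0.0893 (PV-titled) and 0.212 (C-titled), and those of other sets at -0.0209 and -0.0473 (within a number range, 0.118 against 0.0780 and 0.221 against 0.0887). Single same-set pairs fell to -0.345 and -0.347, and the labels do not say what a set shares, so the sets were not taken as pairing the libraries. With the title set as replicate block, 35 genes were higher, 0 were rhythmic in PV-titled libraries and 6 in C-titled ones, and 0 differed in rhythm; over all genes, rhythm differences fell from 73 to 24. The 6 C-titled rhythm calls became 3 without scaling, 3 with time as a factor, 2 in the second range, 2 without the libraries that stand apart, 1 in males, 0 in females and 0 in the first range, and 2 to 6 without a title set. The 0 PV-titled calls became 1 without the libraries that stand apart, and the 0 rhythm differences became 1 with DESeq2. Relations of representatives with Pvalb, Slc17a7 and counts on no gene numbered 11, and 7 without the 2 farthest libraries, 3 in the second range and 3 without title set 1, which was chosen after seeing the data; Cldn5 with Slc17a7 in PV-titled libraries turned to -0.040 in the second range. Over all genes, rhythm calls moved from 3501 to 365 (first range), 1340 (second), 1302 (time as a factor), 269 (females), 472 (males) and 1974 to 3020 (without a title set) for the C-titled group. For the PV-titled group they moved from 404 (3.1%) to 20, 40, 1.2% of genes, 130, 8 and 95 to 341 in the same order. All-gene rhythm differences were 37 without scaling, 1.2% of genes with DESeq2 (0.56% with edgeR), 18 without the libraries that stand apart, 0 in the first and 2 in the second range. The cause of these changes was not tested, though single ranges and sexes hold fewer libraries. Low counts limit Mag, Sox10, Acta2 and C1qa, with 0 to 3 counts in the lowest C-titled library. They also limit the representative Cx3cr1, with 2 counts in its lowest PV-titled and 4 in its lowest C-titled library.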
